A study of Homo sapiens with 6 samples.

Results

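Antisense RNAs are transcripts read from the opposite strand of another gene, and many carry that gene's symbol with the ending AS and a number. The genes described here are the antisense RNAs that KYSE150 cells express, chosen as the rows named with a symbol, AS and 1 digit whose mean level over the 6 libraries was at least 1 CPM (a count scaled to the library total, in the usual unit). The members were thus chosen by their level in these same libraries. They number 461 of 1381 rows with such a name and of 60591 rows in all. Each is set beside its partner, the gene whose symbol stands before AS, which 452 of them have in the table (441 distinct genes). KYSE150 is an established line grown from a human squamous carcinoma of the oesophagus. The TPA group (3 libraries) had been kept overnight without serum and then given 10 ng/ml TPA, a phorbol ester that activates protein kinase C, for 24 h. The DMSO group (3 libraries) received the solvent, and the labels state no dose or time for it. No genetic change to the line is labelled, and the libraries are not stated to be separate cultures, so the p-values cover no more than the variation among these 6, which may be technical.

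An antisense RNA can start close to its partner's start and run away from it, overlap the partner head to head or tail to tail, or lie wholly inside it. Some are known to act on their partner in cis, through transcription itself, chromatin factors or pairing of the RNAs, and others act elsewhere in the cell or have no known role. Many are nuclear and are removed by the RNA exosome, and RNA duplexes that do form are substrates of ADAR editing enzymes and ligands of cytoplasmic sensors. Protein kinase C activation is best known for inducing AP-1 transcription factors.

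Library totals ran from 27702329 to 33965547 counts, so 3 counts in a library stood for 0.0915 to 0.109 CPM. The counting step is not stated to use strand. Whether reads from bases shared by an antisense RNA and another gene were separated, dropped or mixed is therefore unknown. TPA 1 stood apart from TPA 2 and TPA 3, and DMSO 1 from DMSO 2 and DMSO 3, while libraries of 1 number deviated from their group means together. Numbers 2 and 3 could not be told apart in this. Values from a fit with the library number as a block are added where they differ in their call. All 8 squamous epithelial markers were at 1 CPM or more, with summed levels of 581 to 1519 CPM in TPA and 1109 to 2893 CPM in DMSO libraries. Of the markers of other cell types, 1 of 6 fibroblast genes (summed 3.01 to 10.5 CPM in TPA, 5.43 to 12.2 CPM in DMSO), 2 of 6 leukocyte genes (3.52 to 8.45 CPM in TPA, 4.64 to 5.57 CPM in DMSO) and 1 of 5 endothelial genes (1.09 to 2.29 CPM in TPA, 2.20 to 3.00 CPM in DMSO) reached 1 CPM. DCN and KDR were at 0 in every library.

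Most of the antisense RNAs were scarce. Their mean level had a median of 3.07 CPM and reached 96.9 CPM, with 145 under 2 CPM, 235 between 2 and 10 CPM and 81 at 10 CPM or more. The members just inside the limit were ATXN1-AS1 (1.001 CPM), RNASEH2B-AS1 (1.01 CPM) and ZRANB2-AS2 (1.02 CPM), and the rows just outside it were GLYCTK-AS1 (0.993 CPM), ZKSCAN7-AS1 (0.987 CPM) and WWOX-AS1 (0.985 CPM). All 461 passed the filter on low counts, but 61 had a mean under 1 CPM in TPA and 5 had one under 1 CPM in DMSO, so these met the limit only through their other group. Per kilobase of exon, the antisense RNA was above its partner in 61 of 435 pairs, with medians over all pairs of 1.61 CPM per kb for the antisense RNAs and 8.18 CPM per kb for the partners.

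Overlap with exons of the opposite strand had no steady relation to whether a row reached 1 CPM. Of the rows with no exon base under such exons, 129 of 543 (23.8%) were members. The share was 131 of 287 (45.6%) where up to 10% of the exon bases lay under opposite exons, 105 of 261 (40.2%) up to 25%, 75 of 177 (42.4%) up to 50%, and 19 of 64 (29.7%) above 50% and up to 75%. Above 75% it was 0 of 43, and the median level of those rows was 0 CPM. The highest value in any member was 69.9%. The median member shared 4.52% of its exon bases with its partner.

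Few of the antisense RNAs passed the test between TPA and DMSO. With edgeR's quasi-likelihood test and an adjusted p under 0.05, 3 were higher in TPA (ARHGAP29-AS1, PPP1R14B-AS1 and RGMB-AS1) and 2 were lower (IGFL2-AS1 and NR2F1-AS1). Over all 21825 genes tested, 1.26% passed, with 0.861% higher and 0.394% lower, so the members' share of 1.08% was near the background. ARHGAP29-AS1 and RGMB-AS1 had means under 1 CPM in DMSO and met the limit only through TPA, so their choice used the values tested. The same holds for every member named below whose mean in TPA or in DMSO was under 1 CPM. At an unadjusted p under 0.05 there were 93 members (20.2%), against 22.1% of all genes. Each of the 5 lost its call without DMSO 2 (adjusted p 0.234 to 0.300) and without DMSO 3 (0.160 to 0.298). ARHGAP29-AS1 also lost it without TPA 3 (0.0559), and the other 4 without TPA 2 (0.0918 to 0.151) and TPA 3 (0.111 to 0.206). PPP1R14B-AS1, RGMB-AS1 and NR2F1-AS1 lost it without DMSO 1 (0.0505, 0.0729 and 0.0757). Few genes of any kind passed in these fits. Over all genes 0 of 22513 passed without DMSO 2 and 0 of 22411 without DMSO 3. There were 2 higher and 0 lower of 22902 without TPA 3, 24 and 1 of 22904 without TPA 2, and 101 and 38 of 22475 without DMSO 1. The lost calls are therefore not particular to these 5. With the block 10 members were higher and 43 lower, against a background of 4.58% higher and 6.52% lower (11.1% in all), which makes 2.17% and 9.33% of the members. After correction of each library for GC content, with the block, 12 were higher and 53 lower of 459, against 9.18% and 10.8% of all genes (20.0% in all). With DESeq2 15 were higher and 29 lower, against 7.8% and 4.19% of all genes (12.0% in all). Without both libraries numbered 1 the counts were 95 and 166, against 32.2% and 33.3% (65.5% in all).

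The members leaned lower in TPA than genes at large, without most of them passing a test. Their median log2 fold change was -0.22, against -0.11 for all tested genes and 0.09 for the partners. In TPA 64.9% of the members were below DMSO, compared with 56.0% of all genes. All 3 TPA libraries lay below all 3 DMSO libraries for 90 members (19.5%, background 15.2%) and above them for 48 (10.4%, background 14.3%). The partners had the opposite tilt, with 44 below and 92 above of 427. Scaling moved the median of all genes to -0.01 with RLE factors and to -0.36 with library size only, and the members' median stayed 0.11 below it under both. The limit admitted 61 members only through DMSO and 5 only through TPA, so the lean was not independent of the choice. Among the 395 members with at least 1 CPM in both groups the median was -0.16, nearer the -0.11 of all genes. It was -0.20 against -0.17 with the block, and -0.29 against -0.15 with GC correction and the block. By the unblocked test 1 of the 395 was higher and 2 lower, against 0.861% and 0.394% of all genes. With the block 7 were higher and 32 lower, against 4.58% and 6.52%.

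**Figure D1:**
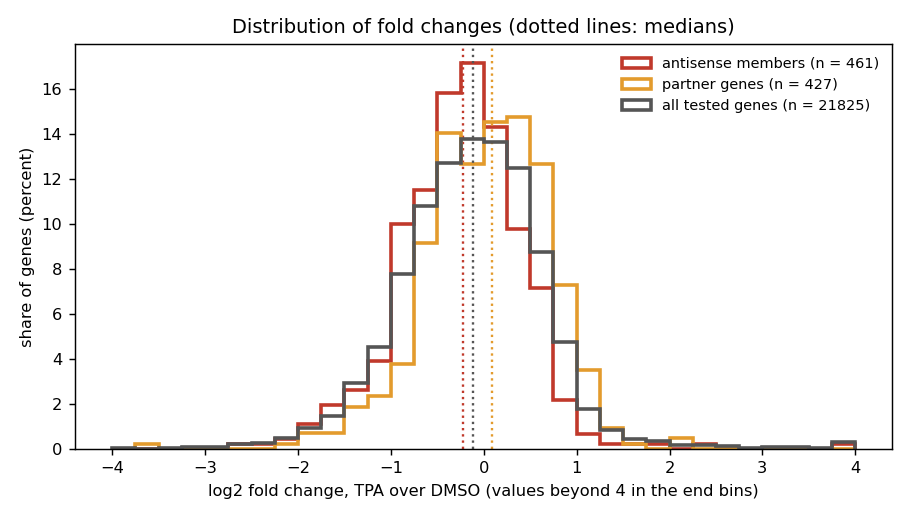
Share of genes (percent) by log2 fold change, TPA over DMSO, for the 461 antisense RNAs, their 427 tested partners and all 21825 tested genes. Dotted lines mark the medians, which stand at -0.22 for the antisense RNAs, 0.09 for the partners and -0.11 for all genes.

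The tilt differed by library number, in the members and in genes at large. Taking TPA over DMSO within each number, the members' median log2 ratio was -0.06 for number 1, -0.27 for number 2 and -0.28 for number 3, against -0.02, -0.15 and -0.13 for all tested genes. A ratio at least 2-fold down was seen in 11, 82 and 81 members for numbers 1, 2 and 3 (2.39%, 17.8% and 17.6%), against 3.23%, 16.0% and 13.1% of all genes. One at least 2-fold up was seen in 9, 13 and 11 members (1.95%, 2.82% and 2.39%), against 2.28%, 6.86% and 4.90% of all genes. The Spearman correlation of the members' ratio with GC content was -0.02 in number 1, 0.46 in number 2 and 0.41 in number 3, over 459 members that share the same libraries. After GC correction with the block the members' median was -0.34, against -0.15 for all genes.

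The first group of antisense RNAs lies beside genes of small GTPases, the cytoskeleton and kinase signalling. ARHGAP29 encodes a GTPase-activating protein. Its antisense RNA, ARHGAP29-AS1 (GRCh38 chr1:94247866-94334848, plus strand), was all but absent from DMSO cells and was detected in every TPA library. It had 5.73, 3.29 and 3.10 CPM in TPA 1, 2 and 3, against 0.165, 0.0915 and 0.0326 CPM in DMSO 1, 2 and 3. The groups were far apart, and DMSO 2 and DMSO 3 held 3 and 1 counts. The mean was 4.04 ± 1.47 CPM in TPA and 0.0962 ± 0.0661 CPM in DMSO (SD, n = 3 each), from 351 and 9 counts, and the log2 fold change was 5.33 ± 0.56 (SE, edgeR adjusted p = 0.0250), a value that depends on the prior count at so few DMSO reads. It is a member only through its TPA libraries. ARHGAP29 itself had 413, 86.7 and 100.7 CPM in TPA against 216, 147 and 160 CPM in DMSO, so its groups overlapped (log2 fold change 0.20 ± 0.58, edgeR adjusted p = 0.862).

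In RefSeq the 2 RNAs start 122 bases apart and run away from each other. In GENCODE 29, used for the arrangements of pairs, ARHGAP29-AS1 starts inside ARHGAP29. There the pair counts as overlapping at the heads and shares no exon base. Their promoter windows in RefSeq (GRCh38.p14, 250 bases before to 50 after the start) are shown because 221 of the 300 bases are the same stretch read on the 2 strands, while the transcripts changed differently. In these and the later windows capitals mark GGGCGG (GC box), CCAAT and TATAAA on either strand. The first is chr1:94247618-94247917 on the plus strand and the second chr1:94247697-94247996 on the minus strand.
ARHGAP29-AS1: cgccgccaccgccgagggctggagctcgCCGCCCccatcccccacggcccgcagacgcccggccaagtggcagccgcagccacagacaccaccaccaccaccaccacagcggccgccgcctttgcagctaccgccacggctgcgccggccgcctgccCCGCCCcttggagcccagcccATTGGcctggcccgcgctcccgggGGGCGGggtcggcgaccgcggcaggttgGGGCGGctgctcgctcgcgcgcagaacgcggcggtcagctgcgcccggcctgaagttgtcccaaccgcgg
ARHGAP29: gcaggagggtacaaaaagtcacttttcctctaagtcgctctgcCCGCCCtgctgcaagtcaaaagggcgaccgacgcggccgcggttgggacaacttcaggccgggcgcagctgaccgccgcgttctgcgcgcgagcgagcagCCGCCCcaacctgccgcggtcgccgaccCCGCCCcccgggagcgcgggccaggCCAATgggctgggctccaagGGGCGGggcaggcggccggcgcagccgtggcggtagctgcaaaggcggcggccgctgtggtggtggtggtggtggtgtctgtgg
Each window holds 4 GC boxes and 1 CCAAT box, and neither holds TATAAA or the AP-1 letters TGANTCA.

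PPP1R14B encodes an inhibitor of protein phosphatase 1. PPP1R14B-AS1 (chr11:64245964-64248217, plus strand) had 8.23, 11.2 and 10.4 CPM in TPA against 2.57, 1.46 and 2.15 CPM in DMSO. The groups did not overlap, and the mean was 9.93 ± 1.52 CPM in TPA and 2.06 ± 0.557 CPM in DMSO (log2 fold change 2.27 ± 0.30, edgeR adjusted p = 0.0304). PPP1R14B averaged 235 ± 76.9 CPM in TPA and 131 ± 6.93 CPM in DMSO (log2 fold change 0.84 ± 0.28, edgeR adjusted p = 0.142). With GC correction and the block PPP1R14B passed (log2 fold change 0.47, adjusted p = 0.0340). Of the exon bases of PPP1R14B-AS1, 61.1% lie under exons of the opposite strand, so its reads are among the least certain. PPP1R14B itself covers 6.03%. The lincRNA AP001453.3 covers 55.1% and averaged 0.0109 CPM in TPA and 0.0219 CPM in DMSO.

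SRGAP3 encodes a GTPase-activating protein of the Slit and Robo pathway, and 2 of its antisense RNAs lie inside it without sharing an exon base. SRGAP3-AS2 (chr3:9192493-9194453, plus strand) had 0.218, 0.336 and 0.620 CPM in TPA against 0.757, 2.87 and 3.19 CPM in DMSO. Its log2 fold change was -2.52 ± 0.64 (edgeR adjusted p = 0.0837, 0.00677 with the block). SRGAP3-AS3 (chr3:9216895-9219508, plus strand) had 0.326, 0.874 and 0.359 CPM in TPA against 0.592, 3.11 and 3.36 CPM in DMSO, with TPA 2 above DMSO 1. Its log2 fold change was -2.17 ± 0.71 (edgeR adjusted p = 0.134, 0.0233 with the block). SRGAP3-AS2 and SRGAP3-AS3 are members only through their DMSO libraries, so their choice used the values tested. SRGAP3 also had lower values within each number, with 10.2, 42.6 and 35.8 CPM in TPA against 35.4, 77.9 and 78.9 CPM in DMSO (edgeR adjusted p = 0.279, 0.0163 with the block).

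PRKCA encodes protein kinase C alpha, one of the kinases that TPA binds. PRKCA-AS1 (chr17:66398069-66416854, minus strand), inside PRKCA with no shared exon base, had 1.49, 0.538 and 0.783 CPM in TPA against 3.92, 3.02 and 2.90 CPM in DMSO. The groups did not overlap (log2 fold change -1.81 ± 0.42, edgeR adjusted p = 0.0713, 0.0101 with the block). PRKCA-AS1 is a member only through its DMSO libraries, so its choice used the values tested. PRKCA had 41.2, 55.3 and 61.3 CPM in TPA against 75.8, 81.7 and 73.1 CPM in DMSO (log2 fold change -0.55 ± 0.23, edgeR adjusted p = 0.211). With GC correction and the block PRKCA passed (log2 fold change -0.67, adjusted p = 0.0196).

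The second group accompanies transcription factors and chromatin proteins. NR2F1 is an orphan nuclear receptor, also called COUP-TFI. NR2F1-AS1 (chr5:93409359-93585648, minus strand) had 15.2, 7.36 and 8.97 CPM in TPA against 30.6, 39.7 and 42.3 CPM in DMSO, with no overlap. The mean was 10.5 ± 4.11 CPM in TPA and 37.5 ± 6.14 CPM in DMSO (log2 fold change -1.84 ± 0.33, edgeR adjusted p = 0.0498), and the adjusted p was 0.0526 when genes had to reach 1 CPM in 3 libraries. NR2F1 was the scarcer of the 2, at 1.34, 3.899 and 3.36 CPM in TPA against 2.11, 4.39 and 4.17 CPM in DMSO, and its groups overlapped (log2 fold change -0.31, edgeR adjusted p = 0.722). With GC correction and the block NR2F1 passed (log2 fold change -0.75, adjusted p = 0.0473).

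GATA3 is a zinc-finger factor of T cells and epithelia. GATA3-AS1 (chr10:8050450-8053484, minus strand) had 1.23, 2.15 and 1.92 CPM in TPA against 0.757, 0.641 and 0.619 CPM in DMSO (log2 fold change 1.39 ± 0.34, edgeR adjusted p = 0.0804, 0.0466 with the block). GC correction with the block ended that call (log2 fold change 0.99, adjusted p = 0.0591). GATA3-AS1 is a member only through its TPA libraries, so its choice used the values tested. GATA3 was also higher with the block, with 64.6 ± 10.1 CPM in TPA and 23.7 ± 6.08 CPM in DMSO (log2 fold change 1.44 ± 0.27, edgeR adjusted p = 0.0540, 0.0116 with the block). GATA3 and its antisense RNA share no exon base in the annotation used.

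HMGA2 is an architectural chromatin protein. HMGA2-AS1 (chr12:65851340-65882167, minus strand) was one of the 6 most abundant members and differed by library number. It had 99.3, 12.7 and 13.1 CPM in TPA against 104, 52.6 and 58.7 CPM in DMSO, so TPA 1 lay among the DMSO libraries. The log2 fold change was -0.78 ± 0.80 (edgeR adjusted p = 0.594), and -1.44 with the block (adjusted p = 0.0411). With GC correction and the block it was -0.88 and the call was lost (adjusted p = 0.0588). HMGA2 had 219, 58.7 and 61.5 CPM in TPA against 216, 120 and 119 CPM in DMSO.

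CDKN2B-AS1, also called ANRIL, is known for recruiting Polycomb proteins to its locus, and CDKN2B encodes the cell-cycle inhibitor p15. CDKN2B-AS1 (chr9:21994778-22121097, plus strand) had 16.1, 8.94 and 8.97 CPM in TPA against 23.8, 25.9 and 32.9 CPM in DMSO (log2 fold change -1.28 ± 0.31, edgeR adjusted p = 0.0767, 0.0199 with the block). CDKN2B was lower by nearly the same factor, at 12.1, 9.88 and 11.8 CPM in TPA against 22.3, 31.1 and 27.9 CPM in DMSO (log2 fold change -1.27 ± 0.23, edgeR adjusted p = 0.0540, 0.0139 with the block). They share no exon base, while CDKN2A, which shares 4.25% of the exon bases of CDKN2B-AS1, averaged 100.7 CPM in TPA and 105 CPM in DMSO.

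HOXA-AS2, from the HOXA cluster, has no single partner row. It had 1.05, 2.45 and 1.86 CPM in TPA against 1.68, 4.97 and 5.18 CPM in DMSO, overlapping because DMSO 1 was low (log2 fold change -1.14 ± 0.51, edgeR adjusted p = 0.241, 0.0475 with the block). TBX2 is a T-box repressor. TBX2-AS1 had 0.725, 1.58 and 1.14 CPM in TPA against 1.32, 2.35 and 2.48 CPM in DMSO, while TBX2 had 1.89, 4.91 and 4.01 CPM in TPA against 1.78, 1.8002 and 1.73 CPM in DMSO. Neither passed without the block (edgeR adjusted p = 0.283 for TBX2-AS1 and 0.180 for TBX2) or with it (0.113 and 0.0933). With GC correction and the block TBX2-AS1 passed (log2 fold change -1.18, adjusted p = 0.0404) and TBX2 did not (adjusted p = 0.138).

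The third group lies beside receptors, inflammatory genes and lipid genes. RGMB is a co-receptor for bone morphogenetic proteins. RGMB-AS1 (chr5:98769618-98773469, minus strand) had 2.65, 2.52 and 2.02 CPM in TPA against 0.625, 0.671 and 0.652 CPM in DMSO, with a wide gap between the groups. The mean was 2.40 ± 0.330 CPM in TPA and 0.649 ± 0.0230 CPM in DMSO (log2 fold change 1.88 ± 0.30, edgeR adjusted p = 0.0410). RGMB was also higher with the block, with 29.3, 23.4 and 23.2 CPM in TPA against 15.7, 15.0 and 11.8 CPM in DMSO (log2 fold change 0.83 ± 0.23, edgeR adjusted p = 0.0977, 0.0433 with the block), and they share 363 exon bases. RGMB-AS1 too is a member only through its TPA libraries.

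IGFL2-AS1 (chr19:46189166-46203083, minus strand) had 3.70, 5.28 and 6.26 CPM in TPA against 17.2, 29.6 and 26.2 CPM in DMSO, with no overlap. The mean was 5.08 ± 1.29 CPM in TPA and 24.3 ± 6.37 CPM in DMSO (log2 fold change -2.26 ± 0.32, edgeR adjusted p = 0.0342). Its partner IGFL2, of a family of secreted growth-factor-like proteins, was at 0 in all 6 libraries and lies over 10 kb away.

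**Figure D2:**
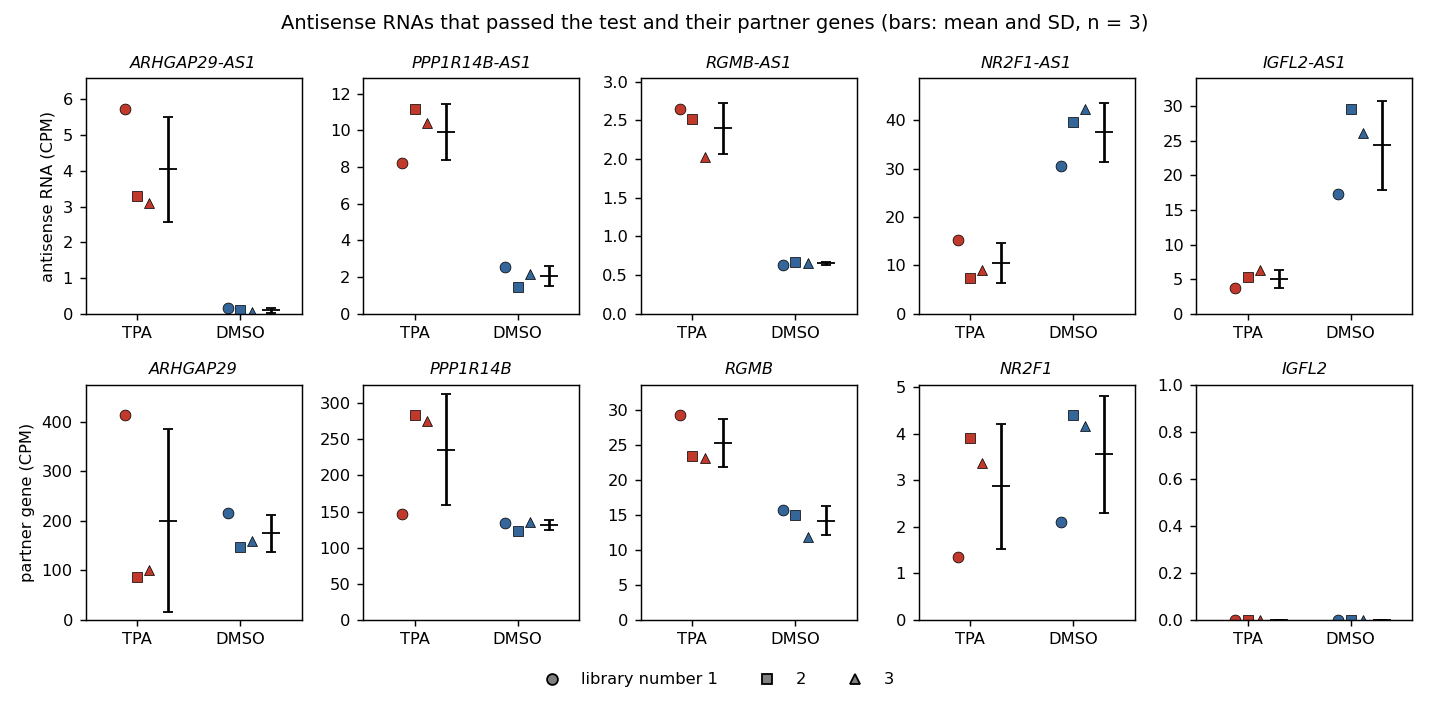
Level in CPM of the 5 antisense RNAs that passed the test (top) and of their partner genes (bottom) in each TPA and DMSO library. Bars are mean and SD (n = 3); the TPA and DMSO libraries do not overlap in any top panel, while those of ARHGAP29 and NR2F1 overlap and IGFL2 is at 0.

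STARD4 carries cholesterol between membranes. STARD4-AS1 (chr5:111512226-111739726, plus strand) had 0.943, 1.01 and 0.652 CPM in TPA against 1.81, 5.06 and 4.33 CPM in DMSO (log2 fold change -2.10 ± 0.45, edgeR adjusted p = 0.0651, 0.0133 with the block). STARD4-AS1 is a member only through its DMSO libraries, so its choice used the values tested. STARD4 had 27.2, 12.2 and 12.7 CPM in TPA against 48.4, 77.1 and 72.1 CPM in DMSO (log2 fold change -1.93 ± 0.38, edgeR adjusted p = 0.0606, 0.00895 with the block). NREP, which shares 15.7% of the exon bases of STARD4-AS1, averaged 0.473 CPM in TPA and 1.89 CPM in DMSO (edgeR adjusted p = 0.0885, 0.0202 with the block).

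CARD8 is an inflammasome sensor. CARD8-AS1 (chr19:48255675-48258199, plus strand) had 6.71, 4.07 and 3.42 CPM in TPA against 2.11, 1.19 and 1.04 CPM in DMSO (log2 fold change 1.71 ± 0.41, edgeR adjusted p = 0.0747, 0.00687 with the block). CARD8 did not pass, at 31.3, 20.9 and 22.9 CPM in TPA against 32.8, 37.1 and 32.3 CPM in DMSO (log2 fold change -0.44 ± 0.24, edgeR adjusted p = 0.320). With GC correction and the block the value of CARD8 was 0.06, so its sign was not kept, while that of CARD8-AS1 was 2.27. Only 3 exon bases are shared. The windows of these 2 pairs are shown as a pair whose members were both lower in TPA and a pair in which only the antisense RNA passed with the block. They are chr5:111511976-111512275 (plus) and chr5:111512486-111512785 (minus) for STARD4-AS1 and STARD4, and chr19:48255425-48255724 (plus) and chr19:48255897-48256196 (minus) for CARD8-AS1 and CARD8.
STARD4-AS1: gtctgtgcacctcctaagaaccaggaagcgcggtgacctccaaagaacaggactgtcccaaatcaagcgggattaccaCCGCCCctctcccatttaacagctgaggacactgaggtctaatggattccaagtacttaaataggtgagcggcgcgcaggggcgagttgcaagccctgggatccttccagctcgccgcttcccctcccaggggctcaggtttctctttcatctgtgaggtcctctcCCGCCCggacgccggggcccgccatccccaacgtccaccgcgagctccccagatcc
STARD4: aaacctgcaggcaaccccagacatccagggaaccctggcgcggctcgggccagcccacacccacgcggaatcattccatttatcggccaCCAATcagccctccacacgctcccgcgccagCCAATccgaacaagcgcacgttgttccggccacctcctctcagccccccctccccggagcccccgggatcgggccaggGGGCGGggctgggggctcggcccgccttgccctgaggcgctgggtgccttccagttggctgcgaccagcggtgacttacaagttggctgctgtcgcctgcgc
CARD8-AS1: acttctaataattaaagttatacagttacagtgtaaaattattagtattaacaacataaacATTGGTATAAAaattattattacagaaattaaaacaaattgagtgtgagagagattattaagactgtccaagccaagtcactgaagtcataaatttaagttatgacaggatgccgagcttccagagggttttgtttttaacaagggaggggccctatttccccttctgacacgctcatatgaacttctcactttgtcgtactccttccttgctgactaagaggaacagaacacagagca
CARD8: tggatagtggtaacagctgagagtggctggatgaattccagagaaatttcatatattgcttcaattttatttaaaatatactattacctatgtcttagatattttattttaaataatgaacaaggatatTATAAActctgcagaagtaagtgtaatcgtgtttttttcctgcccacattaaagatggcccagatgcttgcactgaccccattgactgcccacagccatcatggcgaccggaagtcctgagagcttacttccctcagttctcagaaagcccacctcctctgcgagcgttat
STARD4 has 2 CCAAT boxes and 1 GC box and its antisense RNA 2 GC boxes, while both CARD8 windows hold TATAAA and no GC box. The 3 pairs shown were chosen after their values were seen.

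IER3 is an immediate early stress gene. IER3-AS1 (chr6:30742929-30743592, plus strand) had 6.38, 4.27 and 3.07 CPM in TPA against 3.29, 1.86 and 1.34 CPM in DMSO (log2 fold change 1.08 ± 0.43, edgeR adjusted p = 0.200, 0.0321 with the block, 0.0527 with GC correction and the block). IER3 was far more abundant and rose, at 618 ± 85.5 CPM in TPA and 149 ± 35.8 CPM in DMSO (log2 fold change 2.05 ± 0.24, edgeR adjusted p = 0.0250). IER3 exons cover 68.1% of the exon bases of IER3-AS1. TM4SF19-AS1, beside a tetraspan membrane protein gene, had 35.0, 18.4 and 19.96 CPM in TPA against 22.2, 9.52 and 9.32 CPM in DMSO (log2 fold change 0.84 ± 0.43, edgeR adjusted p = 0.300, 0.0366 with the block). TM4SF19 averaged 61.7 CPM in TPA and 27.0 CPM in DMSO (edgeR adjusted p = 0.0681, 0.0149 with the block). Its exons cover 25.2% of the exon bases of TM4SF19-AS1, and whether shared reads were separated is unknown. OSMR encodes the oncostatin M receptor. OSMR-AS1 averaged 7.39 ± 3.12 CPM in TPA and 14.6 ± 2.26 CPM in DMSO, and OSMR 743 ± 250 CPM in TPA and 549 ± 73.9 CPM in DMSO. With GC correction and the block OSMR passed (log2 fold change 0.52, edgeR adjusted p = 0.0300) and OSMR-AS1 did not (adjusted p = 0.0578).

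The fourth group accompanies genes of RNA metabolism and other housekeeping roles. ZRANB2 is a splicing factor. ZRANB2-AS2 (chr1:71081324-71489976, plus strand), which starts next to ZRANB2 and runs away from it, had 0.653, 0.302 and 0.228 CPM in TPA against 1.55, 1.56 and 1.499 CPM in DMSO (log2 fold change -1.96 ± 0.44, edgeR adjusted p = 0.0691, 0.0193 with the block). ZRANB2-AS2 is a member only through its DMSO libraries, so its choice used the values tested. ZRANB2 averaged 60.1 ± 47.8 CPM in TPA and 59.96 ± 7.49 CPM in DMSO. NOP14 acts in ribosome assembly. NOP14-AS1 had 43.1, 40.1 and 39.2 CPM in TPA against 30.0, 17.9 and 17.5 CPM in DMSO (log2 fold change 0.90 ± 0.27, edgeR adjusted p = 0.116, 0.0365 with the block). NOP14 averaged 93.9 CPM in TPA and 56.8 CPM in DMSO (edgeR adjusted p = 0.114, 0.0786 with the block, 0.0404 with GC correction and the block). The pair shares 605 exon bases, 8.41% of those of NOP14-AS1.

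FAF1-AS1, inside the gene of Fas-associated factor 1, again set TPA 1 apart, with 3.01, 0.403 and 0.457 CPM in TPA against 3.42, 3.94 and 3.42 CPM in DMSO. Its log2 fold change was -1.48 ± 0.73 (edgeR adjusted p = 0.286) and -2.001 with the block (adjusted p = 0.0428), but -1.43 with GC correction and the block, without a call (adjusted p = 0.0771). FAF1 averaged 128 ± 7.17 CPM in TPA and 121 ± 7.86 CPM in DMSO. HOMER3-AS1, beside a scaffold protein gene, had 0.363, 0.874 and 1.24 CPM in TPA against 1.78, 2.11 and 1.86 CPM in DMSO (edgeR adjusted p = 0.177, 0.0599 with the block). It passed with GC correction and the block (log2 fold change -1.70, adjusted p = 0.0243). The 2 other members closest to the 1 CPM limit also had lower means in TPA. ATXN1-AS1 averaged 0.666 ± 0.240 CPM in TPA and 1.27 ± 0.338 CPM in DMSO (edgeR adjusted p = 0.236), and RNASEH2B-AS1 0.491 ± 0.370 CPM in TPA and 1.43 ± 0.273 CPM in DMSO (edgeR adjusted p = 0.159).

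The 6 most abundant antisense RNAs had edgeR adjusted p-values of 0.0651 to 0.802. FGD5-AS1 had 80.1, 89.1 and 91.6 CPM in TPA against 87.2, 119 and 108 CPM in DMSO. Its log2 fold change was -0.27 ± 0.21 (edgeR adjusted p = 0.479), and 0.08 after GC correction with the block. OIP5-AS1, known in mice and fish as Cyrano, had 56.9, 41.8 and 41.7 CPM in TPA against 82.0, 134 and 120 CPM in DMSO, with no overlap (log2 fold change -1.26 ± 0.27, edgeR adjusted p = 0.0651, 0.0222 with the block), and its log2 fold change was -0.67 with GC correction and the block. ADIRF-AS1 had 74.7, 106 and 100 CPM in TPA against 61.6, 41.5 and 45.5 CPM in DMSO (log2 fold change 0.92 ± 0.25, edgeR adjusted p = 0.0961). It passed with GC correction and the block (log2 fold change 0.57, adjusted p = 0.0252). ADIRF was at 0 in every library. The pair shares 917 exon bases and the strand setting is not stated, so the 0 does not show that ADIRF is silent.

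C1RL-AS1 varied little within a group, at 68.2, 69.2 and 67.3 CPM in TPA against 49.97, 52.4 and 54.3 CPM in DMSO (log2 fold change 0.39 ± 0.19, edgeR adjusted p = 0.278). NUTM2A-AS1 had 82.4, 33.0 and 34.8 CPM in TPA against 68.1, 51.4 and 51.2 CPM in DMSO (log2 fold change -0.19 ± 0.39, edgeR adjusted p = 0.802), and its locus has near-identical copies that could share its reads. HMGA2-AS1, described above, is the other of these 6.

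The 53 antisense RNAs that passed with the block were chosen by differences within the library numbers, so their values by number only describe that choice. For the 43 lower ones the median log2 ratio was -0.68 in number 1, -1.43 in number 2 and -1.49 in number 3, and for the 10 higher ones 0.87, 1.18 and 1.12. Of the 53, 38 also passed after GC correction with the block, including all 5 that passed without it.

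**Figure D3:**
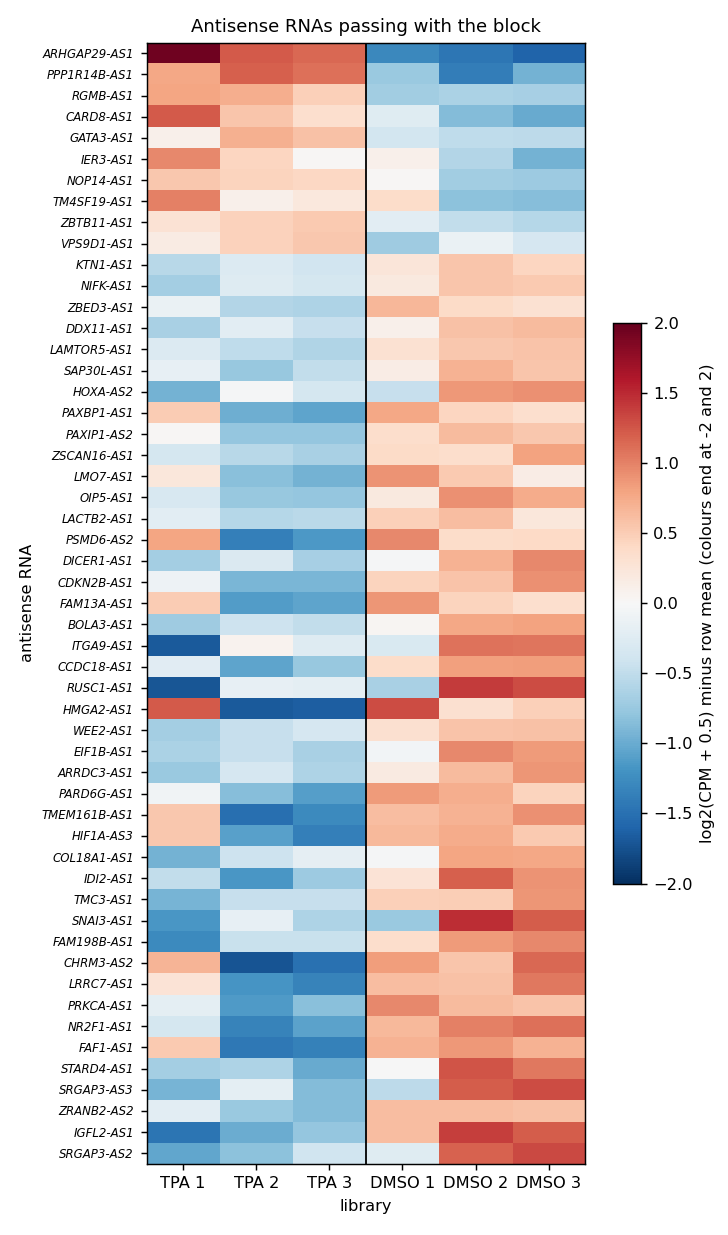
Level of the 53 antisense RNAs that passed with the block, as log2(CPM + 0.5) minus the mean of the 6 libraries, with TPA libraries left of DMSO libraries and rows ordered by fold change. The top 10 are higher in TPA and the other 43 lower; HMGA2-AS1 and FAF1-AS1 are examples in which TPA 1 resembles the DMSO libraries.

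Few partners of the members passed. Without the block 4 of 427 (0.937%) were higher (FAM83A, IER3, PITRM1 and PRMT5) and 3 (0.703%) lower (ARRDC3, HMGN3 and TTC28), against 0.861% and 0.394% of all genes. With the block 29 (6.79%) were higher and 31 (7.26%) lower, against 4.58% and 6.52% of all genes. PRMT5, an arginine methyltransferase, rose with a log2 fold change of 1.51 ± 0.20 (edgeR adjusted p = 0.0304), and PRMT5-AS1 averaged 2.73 CPM in TPA and 1.77 CPM in DMSO (edgeR adjusted p = 0.269). ARRDC3, an arrestin-domain protein, fell by 1.68 on the log2 scale (edgeR adjusted p = 0.0345), and ARRDC3-AS1 averaged 0.939 CPM in TPA and 2.70 CPM in DMSO (edgeR adjusted p = 0.0713, 0.0222 with the block, 0.0846 with GC correction and the block). The antisense RNAs of these 7 partners had edgeR adjusted p-values of 0.0713 to 0.802.

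Of the 53 members that passed with the block, 49 had a tested partner, and in 15 pairs (30.6%) the partner passed with the block as well, while 60 of all 427 partners (14.1%) did. This difference was not tested, and 10 of the 15 pairs passed on both sides with GC correction and the block. In all 15 the antisense RNA and the partner had the same direction, with 11 lower and 4 higher. The 4 higher pairs were those of RGMB, GATA3, IER3 and TM4SF19. The lower ones were SRGAP3 (counted with both its antisense RNAs), STARD4, LRRC7, SNAI3, TMC3, PARD6G, ARRDC3, ITGA9, CDKN2B and LMO7, the pairs outside the named set being given because their partner passed. The pairs of SRGAP3, PARD6G, CDKN2B and GATA3 share no exon base.

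Over all 437 pairs with both RNAs tested, 282 (64.5%) had the same sign, and the log2 fold changes had a Pearson correlation of 0.47 across pairs. The points share libraries, and the GC content of the pair members correlated at 0.58. The correlation was 0.49, 0.45 and 0.48 for library numbers 1, 2 and 3 and 0.42 after GC correction with the block. It was 0.64 over 128 pairs with the antisense RNA inside the partner, 0.62 over 95 that overlap at their tails, 0.36 over 155 that overlap at their heads and 0.15 over 34 that start next to each other and diverge without overlap (Spearman 0.64, 0.63, 0.44 and 0.13 in that order). It was 0.52 for pairs that share exon bases and 0.39 for the 145 that share none. These are descriptions across pairs, and differences between the arrangements were not tested.

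**Figure D4:**
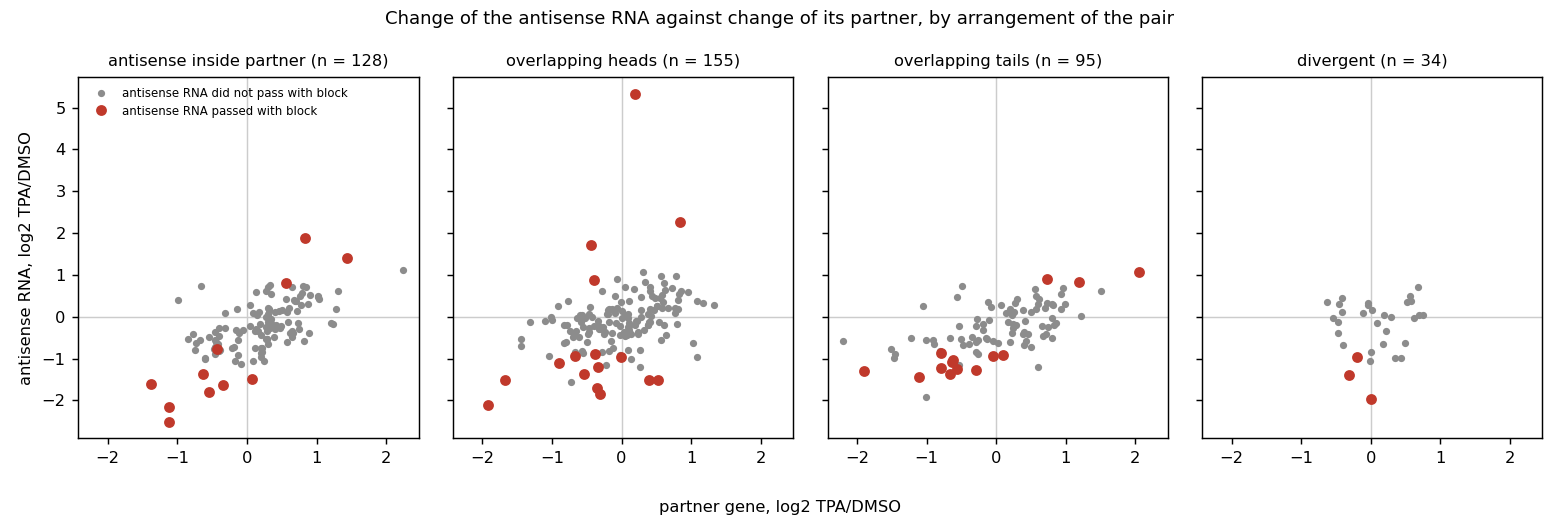
Log2 fold change (TPA over DMSO) of each antisense RNA against that of its partner, by arrangement of the pair. Red points passed with the block; the cloud slopes upward in the inside and tail-overlap panels (Pearson 0.64 and 0.62) and hardly in the divergent panel (0.15), and ARHGAP29-AS1 is the highest point at 5.33.

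The change of an antisense RNA differed from that of its partner by a test in 1 pair. For ARHGAP29-AS1 the log2 ratio to ARHGAP29 was higher in TPA by 5.47 ± 0.56 (edgeR adjusted p = 0.00619, 0.0429 with the block), and 0.156% of all 641 pairs passed. With limma on log2(CPM + 0.5) ratios the change was 3.05 ± 0.39, and DMSO 1, 2 and 3 held 5, 3 and 1 counts of the antisense RNA. No pair was lower. At an unadjusted p under 0.05, 24 were higher and 91 lower of 437, and the share of all 641 pairs at that threshold was not computed. Limma on log2 ratios called 2 higher, ARHGAP29-AS1 and CARD8-AS1, and 0 lower (0.78% of all pairs). Without both libraries numbered 1, 59 were higher and 177 lower (46.3% of all pairs). The median change of the ratio was -0.28 over the 437 pairs of members, and it was negative in 302 of them. Neither value was computed over all 641 pairs. The 1 CPM limit admitted 61 members only through DMSO and 5 only through TPA, so the lean of the ratio was not independent of the choice.

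Several pairs came close. The ratio of CARD8-AS1 to CARD8 changed by 2.17 ± 0.35 (edgeR adjusted p = 0.0516, limma 0.0185), with log2 ratios of -2.14, -2.23 and -2.57 in TPA against -3.67, -4.48 and -4.41 in DMSO. PPP1R14B-AS1 had a ratio change of 1.4998 ± 0.29 (edgeR adjusted p = 0.0661). TTC28-AS1 had one of 1.59 ± 0.33 (edgeR adjusted p = 0.0698), although its own level was 8.26 ± 1.52 CPM in TPA and 12.3 ± 1.10 CPM in DMSO, while TTC28 was at 0.487 ± 0.0458 CPM in TPA and 2.25 ± 0.531 CPM in DMSO. Among the lower ratios ZRANB2-AS2 changed by -1.87 ± 0.32 (edgeR adjusted p = 0.0516), and TBX2-AS1, HOMER3-AS1 and OSMR-AS1 by -1.79, -1.49 and -1.45 (edgeR adjusted p = 0.0661 each).

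**Figure D5:**
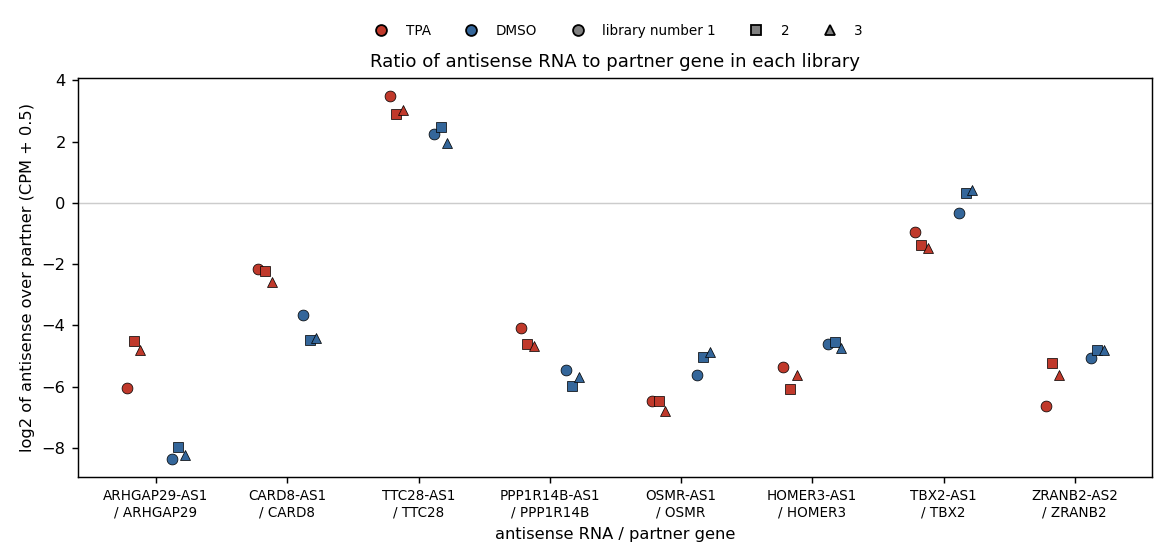
Log2 of the antisense RNA over its partner (CPM + 0.5) in each library for the 4 pairs of lowest adjusted p in each direction, TPA left of DMSO. TPA and DMSO libraries do not overlap in any of the 8; ARHGAP29-AS1 has the widest gap.

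Several antisense RNAs name 1 partner in 12 cases, with 25 members. All members had the same sign in 9 of the 12. Of all members 64.9% had a negative log2 fold change, so members that name different partners also often share a sign. Whether 9 of 12 exceeds that was not tested. The widest spread was between PAXIP1-AS1 and PAXIP1-AS2, whose log2 fold changes ran from -1.03 to 0.36. This pair was named after its values were seen.

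Promoter windows were found in RefSeq for 319 members and 358 partners. The AP-1 letters TGANTCA, on either strand, stand in 8.46% of the members' windows, 5.03% of the partners' and 7.76% of all 27305 windows of that length. GC boxes stand in 48.9% of the members' windows, 69.8% of the partners' and 44.6% of all. TATAAA stands in 8.15%, 8.38% and 12.0%, CCAAT in 32.9%, 32.7% and 35.7%, and the CRE letters TGACGTCA in 2.51%, 3.91% and 1.98% of members', partners' and all windows. In 44 pairs the windows of the 2 RNAs share bases, and the fold changes of those pairs correlated at 0.19, against 0.51 in the 223 pairs whose windows share none (Pearson; Spearman 0.35 and 0.53). The 44 include ARHGAP29-AS1.

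Genes that remove or bind antisense RNAs gave no call in the edgeR test with neither block nor GC correction. Of 23 tested genes of the nuclear RNA exosome and its adaptors 0 passed the unblocked edgeR test (4 or 17.4% at an unadjusted p under 0.05, 1 by DESeq2, 0 by voom), with a median log2 fold change of 0.01 against -0.11 for all genes. EXOSC4, a core subunit, had 1.08 ± 0.28 (edgeR adjusted p = 0.0889, 0.0262 with the block), EXOSC9 -0.65 (edgeR adjusted p = 0.168) and EXOSC5 0.76 (edgeR adjusted p = 0.188). Of 25 tested genes of double-stranded RNA binding, editing and sensing 0 passed (7 of 25 at an unadjusted p under 0.05, 3 by DESeq2, 0 by voom), with a median of -0.16, and 2 were higher and 2 lower with the block. Over all genes 22.1% had an unadjusted p under 0.05, 12.0% passed with DESeq2 and 11.1% with the block. With GC correction alone 1 exosome gene was higher, and 1 gene of the double-stranded RNA list was higher and 1 lower. In that fit 707 of all 21024 genes were higher and 677 lower.

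In that list ILF2, part of a double-stranded RNA binding complex, averaged 316 ± 37.9 CPM in TPA and 163 ± 15.8 CPM in DMSO (log2 fold change 0.95 ± 0.20, edgeR adjusted p = 0.0651, 0.0336 with the block). TLR3, an endosomal sensor, averaged 1.04 CPM in TPA and 3.32 CPM in DMSO (log2 fold change -1.67 ± 0.50, edgeR adjusted p = 0.115, 0.0129 with the block, 0.0710 with GC correction and the block). OAS1 and OASL, outside the named set, are given because they passed with the block. OAS1 was higher (edgeR adjusted p = 0.270, 0.0127 with the block, 0.0110 with GC correction and the block). OASL was lower (edgeR adjusted p = 0.302, 0.00503 with the block, 0.00535 with GC correction and the block). ADARB1, an editing enzyme, had a log2 fold change of -0.60 ± 0.20 (edgeR adjusted p = 0.143). It passed with GC correction and the block (log2 fold change -0.95, adjusted p = 0.00902). Of 35 tested antisense RNAs that are widely studied 0 passed the unblocked edgeR test, with a median of -0.17. At an unadjusted p under 0.05 there were 5 (14.3%), and 5 passed by DESeq2, 0 by voom and 1 with GC correction alone. With the block GATA3-AS1 was higher and STARD4-AS1, OIP5-AS1, CDKN2B-AS1 and HOXA-AS2 were lower.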

How the data were processed

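RNA sequencing of KYSE150 cells gave a deposited table of raw counts per gene symbol, 1 column per library, which the authors made with HISAT2 2.1.0 and HTSeq 0.12.4 on hg38/GRCh38, per the submitters' processing notes. For the annotation release and the strand setting, the sources used here give no entry. Control columns were matched to the DMSO samples by number, and 0 columns were left over.

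From the counts, CPM (over TMM-scaled library size; the 1 CPM rule used column totals) and edgeR's quasi-likelihood test (edgeR 4.0.16, R 4.3.3; TMM, filterByExpr, group only, Benjamini-Hochberg at 0.05 over 21825 genes) were computed. The antisense to partner ratio was tested in edgeR on both RNAs of a pair together, with terms for library, RNA type and RNA type by TPA, over 641 pairs. Alternatives used DESeq2 1.42.0, limma 3.58.1 (voom, and log2 ratios with 0.5 CPM added), other scalings and filters, the library number as a block, a GC correction (robust spline, 5 degrees of freedom) and left-out libraries. The steps were tested on simulated data.

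Deviations of TPA and DMSO libraries from their group means correlated at 0.648, 0.434 and 0.611 for numbers 1, 2 and 3, which is above 0.1 in each, so numbers were treated as pairs. This rests on the data, since no shared culture or day is labelled. TPA 2 with DMSO 3 (0.607) and TPA 3 with DMSO 2 (0.482) were as high, so numbers 2 and 3 are not told apart. Deviations within a group sum to 0, so the correlations of the numbers are not independent of each other. Passing 0.1 in each number therefore does not show 3 separate pairs, and the p-values with the block rest on treating them as such.

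Coordinates, exons and GC content came from GENCODE 29 (GRCh38), in which 459 members were placed; promoters came from RefSeq (GRCh38.p14). The members and lists were chosen with earlier results of these data known. Named are the members that passed, the 8 largest rises and falls among those passing with the block, the 6 most abundant, the 4 lowest adjusted p per direction of the ratio, widely studied RNAs that passed in either fit, the 3 nearest the limit on each side, and the 3 genes of lowest adjusted p in the other lists.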

Additional observations from a re-analysis of the deposited data

How the results depend on the processing

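Counts of calls differed widely between settings. Of the antisense RNAs the unblocked test called 3 higher and 2 lower. Counts of higher and lower members were 3 and 4 with library size only, 4 and 4 with no filter, 3 and 1 with at least 1 CPM in 3 libraries, 15 and 29 with DESeq2, 10 and 43 with the replicate block, 12 and 53 with GC correction and the block, 5 and 20 with GC correction alone, and 95 and 166 without both libraries numbered 1. For partners (4 higher, 3 lower) they were 6 and 3 with RLE factors, 3 and 9 with library size only, 10 and 6 with no filter, 4 and 7 with at least 1 CPM, 59 and 19 with DESeq2, 6 and 7 with voom, 29 and 31 with the block, 72 and 55 with GC correction and the block, 23 and 18 with GC correction alone, and 210 and 143 without number 1. For the 3 lists together (0 and 0) they were 0 and 1 with no filter, 5 and 4 with DESeq2, 4 and 6 with the block, 6 and 9 with GC correction and the block, 2 and 2 with GC correction alone, and 28 and 33 without number 1. The ratio called 1 higher and 0 lower, 2 and 0 with limma, 1 and 0 with the block, and 59 and 177 without number 1. Over all genes 126 were higher and 219 lower of 21825 with library size only, and 429 and 202 of 40368 with no filter. The counts were 157 and 91 of 16844 with at least 1 CPM, and 707 and 677 of 21024 with GC correction alone.

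Leaving out 1 library moved the members' counts between 0 and 62 higher and 0 and 131 lower, the partners' between 0 and 168 and 0 and 126, the ratio's between 1 and 46 and 0 and 129, and the lists' between 0 and 20 and 0 and 24. The highest of each came without TPA 1, and without DMSO 1 the ratio called 2 higher and 6 lower. Over all pairs the ratio called 64 higher and 172 lower of 672 without TPA 1, and 2 and 8 of 667 without DMSO 1. Over all genes 0 of 22513 passed without DMSO 2 and 0 of 22411 without DMSO 3. Over all genes 5577 were higher and 6297 lower of 22633 without TPA 1. Of the members 13.4% were higher and 28.4% lower in that fit. Among 478 alternatives for single RNAs, 361 kept the direction and side of the threshold, 90 newly passed, 23 lost the call and 4 changed sign. FGD5-AS1 went to 0.077 with GC correction and the block and to 0.11 with GC correction alone, and NUTM2A-AS1 to 0.053 without TPA 2 and 0.028 without TPA 3 (-0.636 without TPA 1), none of them past the threshold. The members' median stayed below that of all genes by 0.07 to 0.19 (log2) in all settings run. That range includes members that met the limit through 1 group only. For the 395 with at least 1 CPM in both groups the median was -0.16 against -0.11 unblocked and -0.20 against -0.17 with the block. With GC correction and the block it was -0.29 against -0.15. GC correction without the block was chosen after seeing the data. The cause of these shifts was not tested. Depth limits RNAs near 1 CPM, whose libraries hold about 30 reads, and ratios were not corrected for GC content.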
